A study of Drosophila melanogaster with 2 samples.

Results

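The proteasome subunit genes of Drosophila melanogaster were examined in a chromatin immunoprecipitation experiment (ChIP-seq) on ERR, the fly oestrogen-related receptor. They were taken as the protein-coding genes with symbols that begin with Prosalpha, Prosbeta, Rpn and a digit, or Rpt and a digit. This gave 48 genes of 13945. Of these, 32 encode the main subunits, 14 of the core particle and 18 of the regulatory particle. The other 16 are paralogues, marked by a final T, R, R1 or R2 in the symbol, and comprise 11 core and 5 regulatory genes. Chromatin came from whole embryos, 0 to 24 h old and of both sexes, of an ERR-GFP fly line that stably expresses ERR with GFP at its C-terminus, and an antibody against GFP was used. Biological replicates 2 and 3 form the only group, so no condition was compared. Every region list comes from the tagged line, and a control experiment that the labels name as possible was not analysed here. The promoter that drives the fusion is not given in the sources used here. Whole embryos mix all tissues and ages of that day, so a low signal in all cells cannot be told apart from a high signal in a few.

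The proteasome is the protease that degrades ubiquitin-tagged proteins. Its core particle is a barrel of alpha rings, which gate the entry, and beta rings, which carry the proteolytic sites. The regulatory particle caps the barrel: its base holds a ring of Rpt ATPases that unfold the substrate together with non-ATPase Rpn subunits, and its lid removes the ubiquitin chain. In flies many subunits have a paralogue that is expressed in the testis. ERR is an orphan nuclear receptor best known in flies for its control of genes of glycolysis and related metabolism, and receptors of this family bind extended copies of the sequence AAGGTCA. DREF, M1BP and GAF are fly promoter-binding factors, and cnc with maf-S binds antioxidant elements and is known to raise proteasome gene transcription.

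ERR regions stood at the promoters of 10 of the 32 main subunit genes and of 0 of the 16 paralogues. These counts are from the optimal list, the 2892 regions that the authors kept as reproducible, with a summit within 500 bp of an annotated transcript start. Over all protein-coding genes the share was 15.1% (2105 genes). The 10 genes were Rpn6, Rpn5, Rpt5, Prosbeta1, Rpn2, Rpn13, Prosalpha3, Prosbeta5, Rpn9 and Rpn8. All 10 summits were also within 500 bp of the start of another gene. The palindrome TATCGATA, to which DREF binds, was under 3 of the 10 summits, beside 9.12% of all optimal summits near a protein-coding start. TNAAGGTCA and AAGGTCA were under 0 of the 10, beside 1.17% and 3.10% of the same summits, shares at which 10 summits would show few or none. In promoters, TATCGATA stood at 12 of the 32 main genes, beside 9.36% of all genes. No test was made on these counts, since they describe 1 experiment and genes are not replicates.

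The sites that recur in these promoters are shown first, read on the strand of the subunit gene from the RefSeq copy of genome release 6 (dm6). Capitals mark TATCGATA in each 30-base stretch. Rpt5 had an optimal region, Rpn3, Rpn12, Rpn7, Prosalpha6 and Prosbeta6 had a pooled region of lower signal, and Prosbeta2 had no region within 500 bp. The first base of the palindrome stood at −46 in Rpt5, −197 in Rpn3, −216 in Rpn12, 4 in Rpn7, −16 in Prosalpha6, −44 in Prosbeta6 and −10 in Prosbeta2, where 1 is the outermost annotated start.
Rpt5 (3R:23752819-23752848, + strand): atcgctgtcacTATCGATAagcgccggcga
Rpn3 (2L:19051582-19051611, + strand): tgttatcggagTATCGATAtcgaaaaggct
Rpn12 (3L:16582801-16582830, + strand): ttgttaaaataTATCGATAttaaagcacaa
Rpn7 (3R:22462033-22462062, - strand): gcggtataattTATCGATAattttggggtc
Prosalpha6 (2L:10221324-10221353, + strand): cccgaatccctTATCGATAcccgatacaca
Prosbeta6 (3L:16610444-16610473, - strand): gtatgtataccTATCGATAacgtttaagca
Prosbeta2 (3L:14999930-14999959, + strand): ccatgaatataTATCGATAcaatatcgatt

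The bases directly before Rpn2 and Rpn5 are shown because they lie within an optimal region and hold none of the 6 motifs searched. At Rpn5 that is the lower of its optimal regions. Both stretches overlap no annotated exon, end at the base before the subunit gene's start, and have no capitals.
Rpn2 (3R:29153274-29153523, + strand): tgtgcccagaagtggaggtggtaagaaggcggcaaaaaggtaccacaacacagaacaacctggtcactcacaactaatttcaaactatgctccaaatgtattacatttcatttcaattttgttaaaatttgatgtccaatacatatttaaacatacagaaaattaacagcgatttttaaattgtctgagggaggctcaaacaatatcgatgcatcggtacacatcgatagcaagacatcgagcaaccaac
Rpn5 (3R:5789393-5789492, + strand): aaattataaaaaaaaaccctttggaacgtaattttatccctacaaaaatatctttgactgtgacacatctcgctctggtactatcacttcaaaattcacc

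Signal below is the peak caller's own value for a region, as the authors deposited it. Each list has its own scale, so signals are compared between genes within a list and not between lists. For each gene the highest region with a summit within 500 bp of a start was taken from the pooled list and from the list of each replicate, each of which holds 30000 regions. The lists give no read counts, so the depth behind each value is unknown. The lowest signal in the optimal list was 69.2.

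The alpha ring had 1 optimal region among its 7 main genes. Prosalpha3, an alpha-ring subunit, had a pooled signal of 83.5, with 60.9 in replicate 2 and 28.4 in replicate 3. The 5 other alpha genes with a pooled region were outside the optimal list. Their pooled signals were 56.2 for Prosalpha4, 38.6 for Prosalpha6, 38.4 for Prosalpha7, 37.2 for Prosalpha5 and 25.5 for Prosalpha2. Prosalpha3 thus stood apart from the rest of its ring, and Prosalpha5 had no region within 500 bp in replicate 3. Prosalpha1 had none in any list, and its nearest pooled summit was 2168 bp away.

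Among the beta subunits, the optimal regions fell on genes of proteolytic sites. Prosbeta1, which carries the caspase-like activity, had a pooled signal of 125.7, with 76.9 in replicate 2 and 48.8 in replicate 3. Prosbeta5, which carries the chymotrypsin-like activity, had a pooled signal of 76.3, with 62.7 in replicate 2 and 16.1 in replicate 3. Prosbeta1 was high in both replicates, but Prosbeta5 ranked 1226 among the replicate 2 regions and 11854 among those of replicate 3. Prosbeta2, the trypsin-like subunit, was not listed, and its nearest pooled summit was 847 bp away with a signal of 27.0. The catalytic genes with an optimal region were therefore 2 of 3, beside 15.1% of all genes. None of the 4 beta genes without a proteolytic site had one. Another gene's start lay within 500 bp at 3 of 3 catalytic genes and at 2 of these 4, and its part in the counts was not tested. The pooled signals of the 4 were 48.8 for Prosbeta7, 22.5 for Prosbeta6, 19.98 for Prosbeta4 and 19.5 for Prosbeta3. The summits of Prosbeta6 and Prosbeta4 lay 296 and 337 bp inside the gene, in coding sequence.

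In the base of the regulatory particle, Rpt5 was the only ATPase gene of 6 with an optimal region. Rpt5 had a pooled signal of 141.9, with 83.5 in replicate 2 and 54.8 in replicate 3. The other ATPase genes had pooled signals of 62.5 for Rpt2, 50.2 for Rpt4, 46.6 for Rpt3, 39.5 for Rpt1 and 30.9 for Rpt6. Rpt5 was therefore higher than any other gene of the ring in the pooled list and in both replicates. Of the 4 non-ATPase base genes, 2 had an optimal region. Rpn2, a large scaffold subunit, had a pooled signal of 125.1, with 76.3 in replicate 2 and 52.5 in replicate 3. Rpn13, a ubiquitin receptor that in yeast docks on Rpn2, had a pooled signal of 84.5, with 61.6 in replicate 2 and 23.1 in replicate 3. Rpn10, another ubiquitin receptor, and Rpn1, the other large scaffold, were lower, at 53.4 and 39.7 in the pooled list.

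The lid had optimal regions at 4 of its 8 genes. Rpn6, known from yeast to bridge the lid and the core, had the highest pooled signal of all 48 genes, 144.2, with 91.97 in replicate 2 and 49.7 in replicate 3. Rpn5, a lid scaffold subunit, followed with 143.5 in the pooled list, 87.1 in replicate 2 and 60.01 in replicate 3. The lid genes Rpn9 and Rpn8 were much closer to the lower end of the optimal list. Rpn9 had 73.1 in the pooled list, 42.1 in replicate 2 and 33.1 in replicate 3. Rpn8, known from yeast as the partner of the lid deubiquitinase Rpn11, had 73.0 in the pooled list, 46.6 in replicate 2 and 24.7 in replicate 3. Rpn11 itself was among the lowest main genes, with 24.9 in the pooled list, 17.5 in replicate 2 and 11.1 in replicate 3. Of the remaining lid genes, Rpn3 had a pooled signal of 65.3, Rpn12 of 40.7 and Rpn7 of 30.03, and Rpn7 was not listed in replicate 3.

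**Figure D1:**
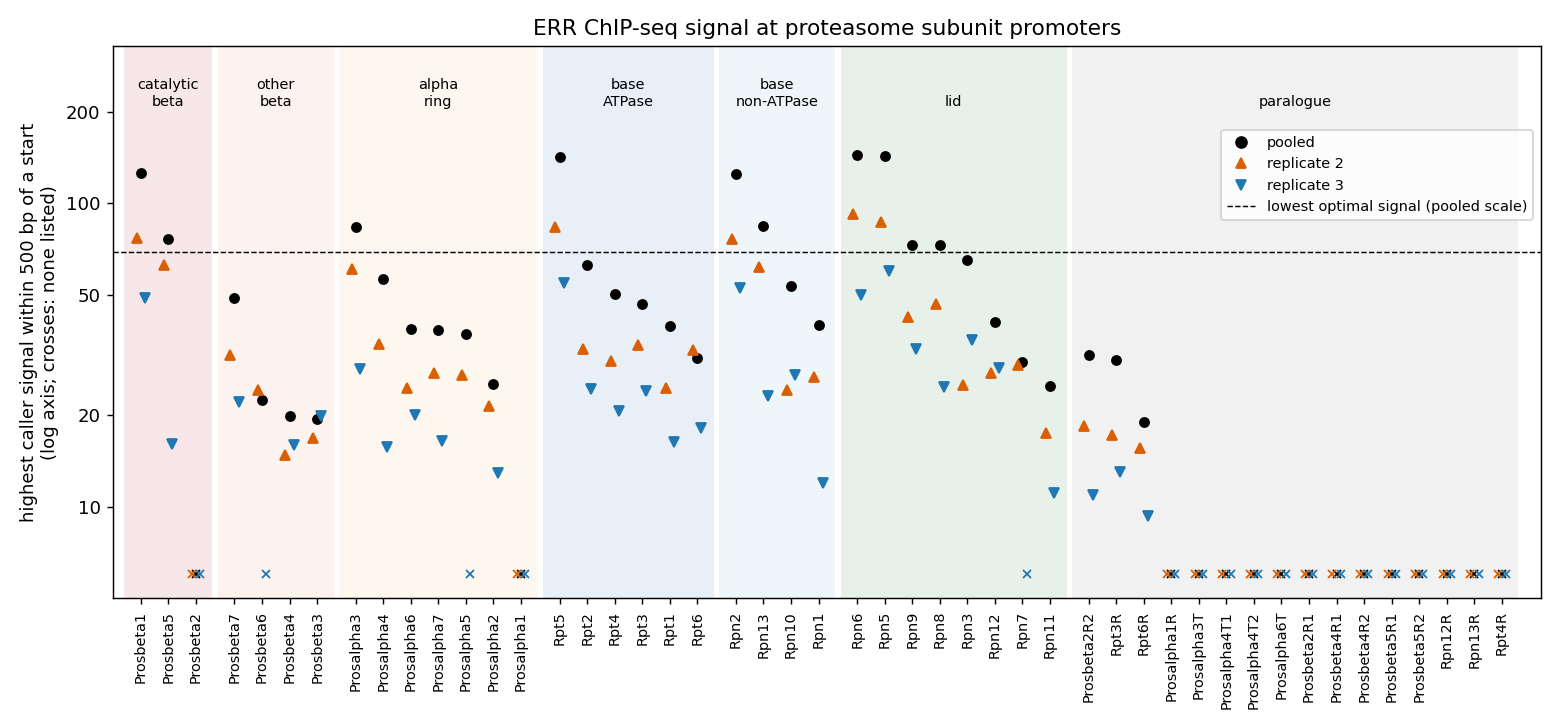
Highest caller signal within 500 bp of a start (log axis) for each of the 48 genes, in the pooled list (circles), replicate 2 (upward triangles) and replicate 3 (downward triangles), grouped by their place in the proteasome. Crosses mark genes with no region in that list and the dashed line is the lowest optimal signal, 69.2, which applies to the pooled values; 13 of the 16 paralogues have crosses only.

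The main genes with an optimal region formed a higher and a lower set in the pooled list. Genes of the higher set were also the highest in each replicate. Rpn6, Rpn5, Rpt5, Prosbeta1 and Rpn2 had pooled signals of 125.1 to 144.2 and ranked between 652 and 881 of the optimal regions. Rpn13, Prosalpha3, Prosbeta5, Rpn9 and Rpn8 had pooled signals of 73.0 to 84.5 and ranked between 1955 and 2594. In replicate 2 the step between the sets, 76.3 to 62.7, was no wider than 1 inside the lower set, 60.9 to 46.6. The median over the 10 genes was 104.8, beside 101.9 over all genes with an optimal promoter region. This median fell in the gap between the higher and the lower set, so it describes none of the 10 genes. Just outside the list stood Rpn3, whose pooled region ranked 3226, and Rpt2, whose pooled region ranked 3499. Like every optimal region, both had a −log10 q of 3.89, the highest value in the pooled list.

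Regulatory particle genes had optimal regions at 7 of 18 main genes and core particle genes at 3 of 14, both beside 15.1% over all genes. In the pooled list of any signal, all 18 regulatory genes and 12 of the 14 core genes were listed, beside 56.0% over all protein-coding genes. Together this is 30 of 32 main genes, and the 20 that were not in the optimal list had pooled signals of 19.5 to 65.3 with a median of 39.1. With unlisted genes taken as 0, the median pooled signal was 57.9 for regulatory genes, 37.8 for core genes and 21.9 for all genes. The difference between the particles was not tested. By module, the counts were 1 of 7 for the alpha ring, 2 of 3 for catalytic beta, 0 of 4 for other beta, 1 of 6 for base ATPases, 2 of 4 for other base genes and 4 of 8 for the lid.

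**Figure D2:**
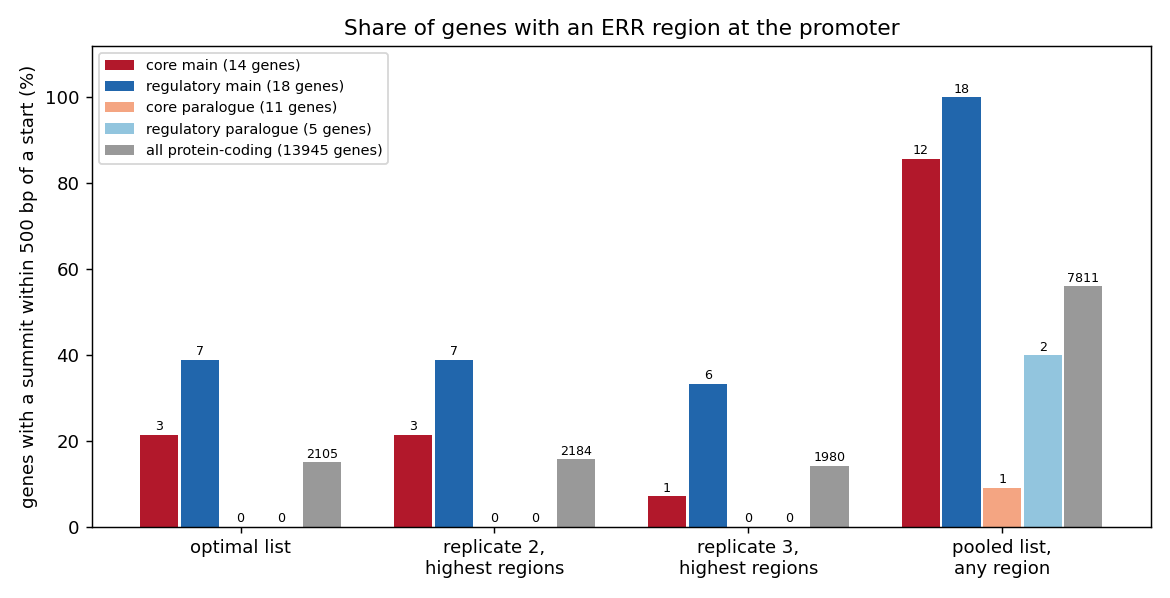
Percentage of genes with a summit within 500 bp of a start in the optimal list, in the 2892 highest regions of replicate 2 and of replicate 3, and anywhere in the pooled list, with the number of genes above each bar. Main genes of the regulatory particle (18 genes) stand above those of the core (14 genes) in each list, and paralogues have a region in the full pooled list only among these 4 sets.

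Both replicates were also read on their own. Any region in replicate 2 was found at 30 of 32 main genes, beside 56.1% of all genes, and any region in replicate 3 at 27 of 32, beside 54.3%. Among the 2892 highest regions of replicate 2, the same 10 main genes appeared as in the optimal list, beside 15.7% of all genes. Among the 2892 highest of replicate 3 there were 7, beside 14.2% of all genes. The genes in both of these top sets were 6, beside 10.8% of all genes: Prosbeta1, Rpn2, Rpn5, Rpn6, Rpn9 and Rpt5. Prosalpha3, Prosbeta5, Rpn13 and Rpn8 were thus in the optimal list and in the top set of replicate 2 but not in that of replicate 3. Rpn3 showed the reverse. Its signal was 25.2 in replicate 2, where it ranked 6984, and 35.5 in replicate 3, where it ranked 2376. Core genes numbered 3 of 14 in the top set of replicate 2 and 1 of 14 in that of replicate 3. Regulatory genes numbered 7 of 18 in the top set of replicate 2 and 6 of 18 in that of replicate 3.

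The ratio of replicate 2 signal to replicate 3 signal had a median of 1.51 over the 27 main genes listed in both, and of 1.30 over the 6506 genes of the genome listed in both. Because the lists are not scaled to each other, a ratio of 1 has no special meaning and members are read against the ratio of all genes. The quartiles over all genes were 0.991 and 1.68. Replicate 2 had the higher value in 22 of the 27 main genes, and also in most of the 6506, whose lower quartile was near 1. The ratio ranged from 0.710 at Rpn3 to 3.89 at Prosbeta5, and its median was 1.46 over 17 regulatory genes and 1.62 over 10 core genes. The 5 main genes of highest pooled signal lay close together in both replicates, at 76.3 to 91.97 in replicate 2 and 48.8 to 60.01 in replicate 3.

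**Figure D3:**
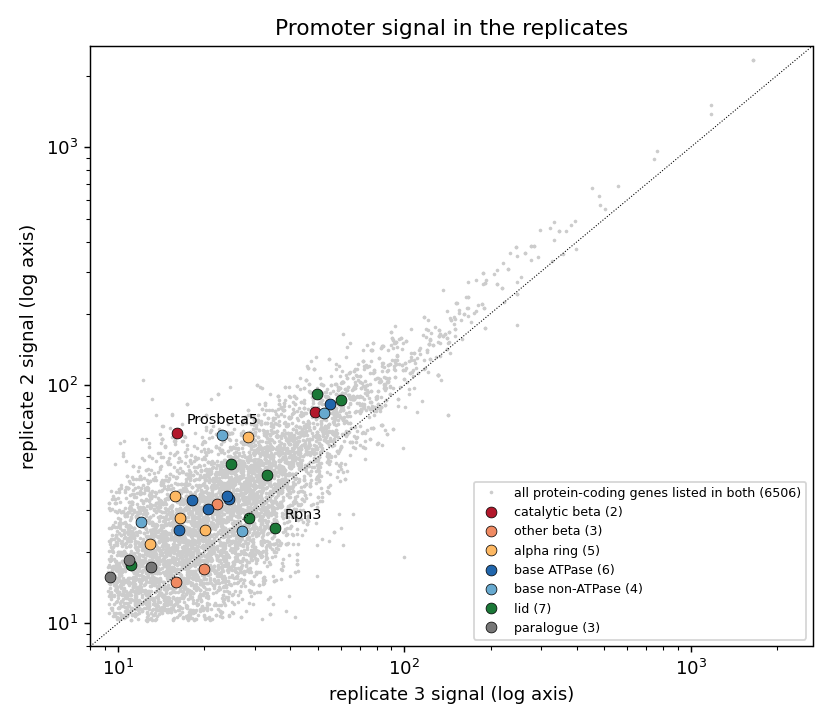
Highest promoter signal of each gene in replicate 2 (vertical, log axis) against replicate 3 (horizontal, log axis) for the 6506 protein-coding genes listed in both (grey) and the proteasome genes among them, coloured by module; the dotted line marks equal values. Most members lie above the line as most genes do, Prosbeta5 lies far above it at 62.7 against 16.1, and Rpn3 lies below it at 25.2 against 35.5.

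Each of the 10 optimal summits at a main gene was shared with a neighbour. All 10 lay within 500 bp of a start of another protein-coding gene, beside 32.9% of the 1710 optimal regions near any protein-coding start. That share counts each region once. The 10 were picked by gene, and a shared region is picked for each of its genes, so shared regions weigh more among them. In 9 of the 10 pairs the closest gene ran head to head with the subunit gene, read from the subunit start nearest to it. Many main genes without an optimal region, such as Rpn3, Rpt2 and Rpt4, had the same arrangement. No share over all genes was counted for it. The subunit start was the nearer one for 5 summits and the neighbour's start for the other 5. Taking for each gene the start nearest to the summit, 8 summits lay between the starts of the pair. At Rpn5 a further Hat1 start, 109 bp from Rpn5, stood between the summit and the Rpn5 start. At Rpn6 and Rpn8 the nearest subunit start was an internal one, and the neighbours ave and Slik start inside the subunit gene. The lists therefore cannot tell apart a region of the subunit gene from one of its neighbour.

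The 5 regions of highest signal show how close these pairs are. The summit at Rpn6 lay in an intron of the longer transcript, 540 bp downstream of the gene's outermost start, 99 bp upstream of an internal alternative start and 151 bp from ave, in a region of 108 bp (2R:14752288-14752395). The highest summit at Rpn5 was 296 bp upstream, in intronic sequence and 123 bp from a start of Hat1, a histone acetyltransferase gene (3R:5788995-5789398). Rpn5 alone among the main genes had another optimal region, with a signal of 109.4 and its summit 97 bp upstream. That summit was nearer to the Hat1 start 109 bp from Rpn5 than to Rpn5 itself. At Rpt5 the starts of the pair were 42 bp apart, and the summit stood between them, 28 bp from Rpt5 and 14 bp from RanBP3 (3R:23752646-23753049). The Prosbeta1 summit was 68 bp from its start and 53 bp from Rrp42, a gene of the RNA exosome (2R:16014816-16014916). The Rpn2 summit was 56 bp from its start and 202 bp from Slbp, which encodes the stem-loop binding protein of histone mRNAs (3R:29153266-29153669).

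In the lower set the neighbour was nearer for Rpn8. The Rpn8 summit lay 2635 bp downstream of the gene's outermost start, 342 bp upstream of an internal alternative start and 17 bp from Slik, a kinase gene. A pooled region 325 bp upstream of the outermost Rpn8 start, with a signal of 43.3, was not in the optimal list. From outermost starts alone, Rpn6 and Rpn8 had no optimal region, and the count of main genes was 8, beside 13.4% of all genes. The summits at Rpn13, Prosalpha3 and Prosbeta5 were nearer to the subunit gene. They stood 113, 38 and 17 bp upstream of it, and 158 bp from CtsL1, 481 bp from dgt3 and 77 bp from dgo.

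**Figure D4:**
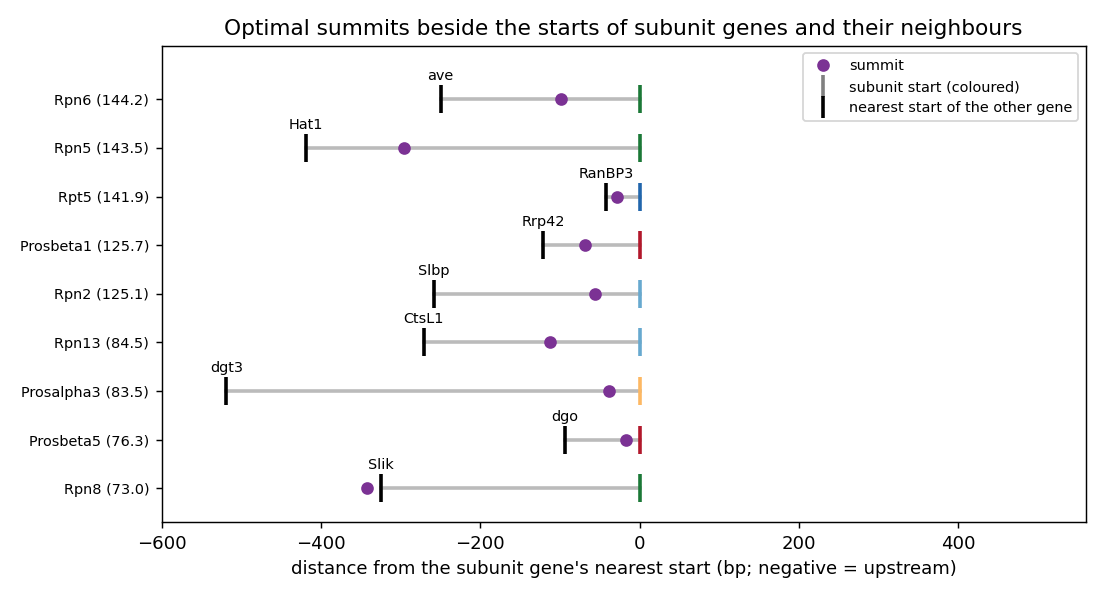
Summit of the highest optimal region (purple circle), start of the subunit gene (coloured bar at 0) and nearest start of the other gene (black bar, named) for 9 of the 10 main genes with an optimal region, in bp from the nearest subunit start, with the optimal signal in brackets. The black bar is the other gene's start nearest to the summit. Of these 9 summits, 8 lie between the starts drawn, and that of Rpn8 lies just past the start of Slik. At Rpn5 a further Hat1 start, 109 bp from Rpn5 and not drawn, lies between the summit and Rpn5. At Rpn6 and Rpn8 the bar at 0 is an internal alternative start.

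Close neighbours were common at main subunit genes, and more common at those with an optimal region than at those without. Another gene's start lay within 500 bp of an own start at 21 of 32 main genes, beside 30.9% of all genes (4309 genes). Optimal regions stood at 9 of these 21, beside 27.1% of all genes with such a neighbour. Of the 11 main genes with no such neighbour 1 had an optimal region, beside 9.73% of all such genes. That gene was Prosalpha3, whose neighbour dgt3 starts 519 bp away. Among the 20 main genes with a pooled region outside the optimal list, 9 summits were within 500 bp of another gene's start. The matching share over all genes was not counted, so this number cannot be called high or low.

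The paralogues were almost bare of regions in all 4 lists. The pooled list had a region at 3 of 16, beside 56.0% of all genes, and so had replicate 2 and replicate 3. Prosbeta2R2 had a pooled signal of 31.6, with 18.5 in replicate 2 and 10.9 in replicate 3. Rpt3R had a pooled signal of 30.3, with 17.2 in replicate 2 and 13.1 in replicate 3. Rpt6R had a pooled signal of 19.1, with 15.6 in replicate 2 and 9.36 in replicate 3. These are low values within each list, with a pooled −log10 q of 1.28, 1.17 and 0.425. The region at Rpt3R had its summit 6 bp upstream of that gene and 25 bp from Alg12, so it too was shared. That at Prosbeta2R2 lay 204 bp inside the gene in an intron, 333 bp from a start of CG1116, and that at Rpt6R lay 221 bp inside the gene in coding sequence. For the 13 unlisted paralogues the nearest pooled summit was 1498 to 67575 bp away, with a median of 10781 bp, and in 12 of them it was over 5000 bp away. These distances were not computed over all unlisted genes, so they cannot be called particular to paralogues.

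Paralogues also differed from main genes in their surroundings. A neighbour's start within 500 bp was present at 3 of 16 paralogues and at 21 of 32 main genes, and the median gap to the closest other gene's start was 2470.5 bp at paralogues, 305 bp at main genes and 1375 bp at all genes. A single exon was found in 5 of 16 paralogues and 4 of 32 main genes, beside 12.95% of all genes. Gene length was similar, with a median of 1282 bp for paralogues and 1390 bp for main genes. The part of gene spacing in the lack of regions at paralogues was not tested.

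Both strands were searched for motifs, from 100 bp before to 100 bp after each summit and in promoters of 250 bases before to 50 after the outermost start. The ERR sequence TNAAGGTCA and its core AAGGTCA, which lies within it, were in 0 of the 10 optimal windows of main genes. In all 2892 optimal windows they were in 1.63% and 3.80%, so 10 windows would hold few or none at those shares. The same sequences were in 0 of the 48 member promoters, beside 0.638% and 2.11% of all promoters. A match to TNAAGGTCA began 289 bases before the start of the paralogue Rpn13R, outside the promoter window, and no pooled region was within 500 bp of that start.

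TATCGATA was in the promoters of 12 of 32 main genes (37.5%) and of 0 of 16 paralogues, beside 9.36% of all promoters. The 7 sites printed above are those of Rpt5, Rpn3, Rpn12, Rpn7, Prosalpha6, Prosbeta6 and Prosbeta2, and the other 5 genes were Prosalpha3, Prosalpha5, Prosbeta1, Rpn9 and Rpn13. It was present in 5 of 10 main genes with an optimal region and in 7 of 22 without, so it was not confined to genes with a region. Under the summits it was in 3 of 10 windows, those of Rpt5, Prosbeta1 and Prosalpha3, beside 9.12% of all optimal windows near a protein-coding start. The centre of the palindrome was 14.5 bp from the summit at Rpt5, 49.5 bp at Prosbeta1 and 53.5 bp at Prosalpha3. Below the optimal list, the palindrome lay 3.5 bp from the Prosalpha6 summit and, in a copy other than the one printed, 21.5 bp from that of Rpn3. Median GC content was 33.5% in main promoters, 32.7% in paralogue promoters and 38.0% in all promoters. Its part in the count of this AT-rich sequence was not tested.

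The remaining motifs were less frequent. GGTCACACT was in 5 of 32 main promoters, beside 6.05% of all promoters. It was under 1 of 10 optimal summits, that of Rpn9, beside 4.68% of all optimal summits near a protein-coding start. The cnc and maf-S sequence TGACNNNGC was in 5 of 32 main promoters, beside 8.63%, and under 0 of 10 optimal summits, beside 6.74% of all optimal windows. Its match at Rpn1 and 1 of its matches at Prosbeta3 overlap those to GGTCACACT. GAGAGAG was in 0 main promoters and 2 paralogue promoters, beside 5.87% of all. A match describes letters only and does not show that a factor was bound.

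Genes around the proteasome gave the following counts, each beside 15.1% of all genes. Among 7 accessory and assembly genes, 2 had an optimal region: Uch-L5, a deubiquitinase whose human counterpart docks on Rpn13, with 110.3 and Pomp, a core assembly chaperone, with 80.6. Among 6 genes that control proteasome gene transcription or, in flies or mammals, process or restrain the factor that does, 4 had one. These 6 genes have a mean of 3.17 annotated starts, beside 1.41 over all genes, and the part of that in the count was not tested. The 4 were cnc itself with 118.2, Pngl with 108.6, TER94 with 90.2 and Keap1, the inhibitor of cnc, with 73.6. The cnc region had a signal of 62.8 in replicate 2 and 56.0 in replicate 3 and was among the 2892 highest of both. Of 5 ubiquitin and ubiquitin-activation genes only Ubi-p63E had one, with 97.1, and neither of the TER94 cofactors Npl4 and p47 did. The COP9 signalosome, a complex built like the lid, had optimal regions at 2 of 8 genes, alien with 111.7 and CSN6 with 76.2.

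Other large complexes were counted in the same way. Optimal regions stood at 47 of 92 cytosolic ribosomal protein genes, 7 of 33 vacuolar ATPase genes, 5 of 16 eIF3 genes and 1 of 8 CCT chaperonin genes, beside 10 of 32 main proteasome genes and 15.1% of all genes. The proteasome share of 31.25% equalled that of eIF3 and lay below the 51.1% of ribosomal protein genes. These differences were not tested.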

How the data were processed

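ChIP-seq region lists for 2 biological replicates of 1 group were used. Each region carries a signal from the peak caller, which the authors deposited without a common scale for the lists. The −log10 q-value of each region is also the caller's, as deposited. Per the file notes, the optimal list was selected by the irreproducible discovery rate and the pooled list joins both replicates. The sources used here name neither the aligner nor the caller. The optimal list equalled the 2892 highest pooled regions, so pooled signal decides membership. Of 8 deposited lists, 4 on dm6 were used. The other 4, on dm3, were not used.

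Summits were assigned to every protein-coding gene with an annotated start within 500 bp (Ensembl release 115 gene models, BDGP6.54), using Python 3.11.15, pandas 2.3.3 and numpy 2.4.6. Coordinates are 1-based on dm6. All 48 members are accounted for, and those with an optimal region are given in full. On simulated data, 200 of 200 planted promoter regions and 200 of 200 planted motifs were found. Depth is unknown, and no test was made: counts are set beside the share over all genes. The members, lists, motifs and alternatives were chosen with earlier results of these data known. The distances of 200 and 1000 bp to a neighbour's start, and the split by close neighbour, were added after seeing the data. The symbol Ufd1-like matched no gene model and was left out. The neighbourhood of Rpn9 is not reported here.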

Additional observations from a re-analysis of the deposited data

How the results depend on the processing

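No paired analysis was possible because both replicates form 1 group and no groups were compared. The count of main genes with an optimal region (10) was 5 where a summit counted only for its nearest start, beside 11.5% of all genes. It was 5 in the higher-signal 50% of optimal regions, beside 8.16%, and 5 in the 1000 highest pooled regions, beside 5.74%. It was 30 in the whole pooled list, beside 56.0%, and 1 among the 11 genes without a close neighbour, beside 9.73% of all such genes. The shares for each setting apply equally to the regulatory, core and paralogue counts that follow. Regulatory genes (7) numbered 3 with the nearest start only, 4 in the higher 50% and in the 1000 highest, and 18 in the whole pooled list. Core genes (3) numbered 1 in the higher 50%, 1 in the 1000 highest and 12 in the whole pooled list, and paralogues (0) numbered 3 in the whole pooled list. Without either replicate the counts were 7 to 10 for main genes, 6 to 7 for regulatory genes, 1 to 3 for core genes and 0 for paralogues. The core count of 1 was that of replicate 3 alone. With a replicate left out, the share over all genes was 14.2% to 15.7%. The median optimal signal (104.8) was 125.4 within 1000 bp and 84.5 with the nearest start only. Over main genes, replicate 2 signal divided by replicate 3 signal (median 1.51) came to 1.45 within 1000 bp, 1.46 with any overlap, 1.46 from the outermost start and 1.43 with the nearest start only. TATCGATA was under 10% of the 10 summits within 50 bp of the summit, 30% within 100 bp and 50% within 250 bp. From the outermost start only there were 8 main and 5 regulatory genes, beside 13.4% of all genes. In the 5000 highest pooled regions there were 14 main and 10 regulatory genes, beside 24.0%. With the nearest start only there were 2 core genes, beside 11.5%. The 10 of 10 shared summits were 8 with a neighbour's start within 200 bp, beside 21.6% of optimal promoter regions, each counted once. The cause of these shifts was not tested. The unknown depth limits what an unlisted gene shows: its signal may lie below the lists' lower ends.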
